A study of Mus musculus with 8 samples.

Results

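The gene group described here is interleukin-2 (IL-2) and the receptors of the common gamma chain family. Its 9 genes, Il2, Il2ra, Il2rb, Il2rg, Il7r, Il4ra, Il15ra, Il21r and Il9r, were matched by gene symbol to the annotation of an Affymetrix mouse array, which gave 14 probe sets for 8 of them out of 45037 probe sets in all. Il2rg had no probe set named for it in the annotation used here and was not analysed here. A further probe set that names Il2 together with another gene was left out. RNA came from CD4+ T cells of mice in which the gene for Foxp3, the transcription factor of regulatory T cells, carried an enhanced green fluorescent protein (EGFP) reporter. The arrays were labelled delta EGFP+ (n = 3, cells sorted for the reporter on a mutant Foxp3 allele), WT EGFP+ (n = 3, cells sorted for the reporter on the wild-type allele), delta EGFP- (n = 1) and WT EGFP- (n = 1), the last pair being CD4+ cells sorted as lacking the reporter. The donors of EGFP+ cells were hemizygous males, and the labels give neither age nor whether animals were pooled. The labels do not tie replicates to separate animals, so each p-value reflects only how these samples vary, which may be technical variation. Each EGFP- group is a single array, and its spread was taken to equal that of the EGFP+ groups.

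IL-2 is a growth factor secreted by activated T cells, and regulatory T cells are known to depend on it while making little of it. Its high-affinity receptor joins the alpha chain (Il2ra, CD25), the beta chain (Il2rb) and the gamma chain, which also pairs with Il2rb or with the private chains for IL-4, IL-7, IL-9, IL-15 and IL-21. Signals pass through the kinases Jak1 and Jak3 to STAT factors, and regulatory T cells are typically high in Il2ra and low in Il7r.

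All levels are log2 of the deposited intensity, and a difference on this scale is a log2 difference. Array medians lay between 53.3 and 54.7 in linear intensity, and precision is set by how few arrays there are. The Foxp3 probe set, read first as a check of the labels, had levels of 11.1, 11.51 and 11.21 in delta EGFP+ samples, against 4.75, 4.86 and 4.64 in WT EGFP+ samples. It stood at 6.14 in the delta EGFP- array and at 4.52 in the WT EGFP- array. The low reading in the arrays labelled WT EGFP+ goes against that label, and no source used here says whether this probe set lies within the part of the gene that differs between alleles. Groups are named as labelled, and every direction between alleles rests on those labels. The other regulatory T cell markers Ikzf2, Ctla4, Tnfrsf18 and Nrp1 were higher in each of the 6 EGFP+ arrays than in either EGFP- array. The EGFP- arrays also differed, with Ikzf2 at 11.48 and Ctla4 at 9.26 in delta EGFP-, against 7.98 and 6.09 in WT EGFP-, and Ikzf2 in delta EGFP- lay near the lowest EGFP+ array (12.09). The 4 measured markers of CD4+ T cells averaged between 12.11 and 12.33 in every array.

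Sequence upstream of annotated starts is shown for Il2, Il2ra and Il7r, the members with a promoter entry whose levels spread most across the groups. Each run is the 250 bases before the start in RefSeq's table for GRCm38.p6, read 5′ to 3′ on the gene's strand, and capitals mark every match to 5 motifs searched on both strands. The motifs were GGAAAA (core of NFAT sites), TGANTCA (AP-1), TTCNNNGAA (the STAT site called GAS), GTAAACA (FOXO) and CCGGAAG (ETS).
Il2 (chr3:37125955-37126204, minus strand): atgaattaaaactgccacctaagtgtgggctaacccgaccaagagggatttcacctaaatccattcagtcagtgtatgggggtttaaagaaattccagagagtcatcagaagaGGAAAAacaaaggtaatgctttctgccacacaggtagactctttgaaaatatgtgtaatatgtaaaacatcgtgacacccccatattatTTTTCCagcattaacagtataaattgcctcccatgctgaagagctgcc
Il2ra (chr2:11642542-11642791, plus strand): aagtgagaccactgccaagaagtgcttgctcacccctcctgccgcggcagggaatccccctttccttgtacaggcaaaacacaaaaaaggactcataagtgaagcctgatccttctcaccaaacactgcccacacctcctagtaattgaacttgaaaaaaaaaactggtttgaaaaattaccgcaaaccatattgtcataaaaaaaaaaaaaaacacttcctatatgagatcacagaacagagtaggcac
Il7r (chr15:9529877-9530126, minus strand): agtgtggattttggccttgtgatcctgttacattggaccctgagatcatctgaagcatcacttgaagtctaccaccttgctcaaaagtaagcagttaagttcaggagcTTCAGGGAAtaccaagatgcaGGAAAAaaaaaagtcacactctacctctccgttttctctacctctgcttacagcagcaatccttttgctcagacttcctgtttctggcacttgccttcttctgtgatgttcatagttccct
The Il2 window held the NFAT core at 2 places, with first bases at -137 and, on the opposite strand, at -48 from the start. The Il7r window held a GAS match at -142 and an NFAT core at -121, which do not overlap, and the Il2ra window held none of the 5. Among 32851 promoter windows of the same length, 20.4% held the NFAT core, 7% the GAS motif, 6.7% the AP-1 motif, 6.9% the ETS motif and 3.2% the FOXO motif, so a match is a description of these letters only. In the reference gene order Il2ra lies next to Il15ra, Il4ra next to Il21r, and Il2 next to Il21, which encodes another ligand of the family.

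The first comparison sets the alleles against each other among cells sorted for the reporter. The ligand and its alpha chain differed in opposite directions. The Il2 probe set rose in delta EGFP+ arrays, while both probe sets of Il2ra and 2 of the 3 of Il4ra, the IL-4 receptor alpha chain, fell. Il2rb stood at nearly the same mean in both groups. Limma, with p-values adjusted over all probe sets and a threshold of 0.05, called 5 of the 14 probe sets, 1 higher and 4 lower, against 12.7% of all probe sets called (7.35% higher and 5.39% lower). The 5 belong to 3 genes, so they are not independent, and the median difference over the 14 was -0.44 against -0.01 over all probe sets.

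**Figure D1:**
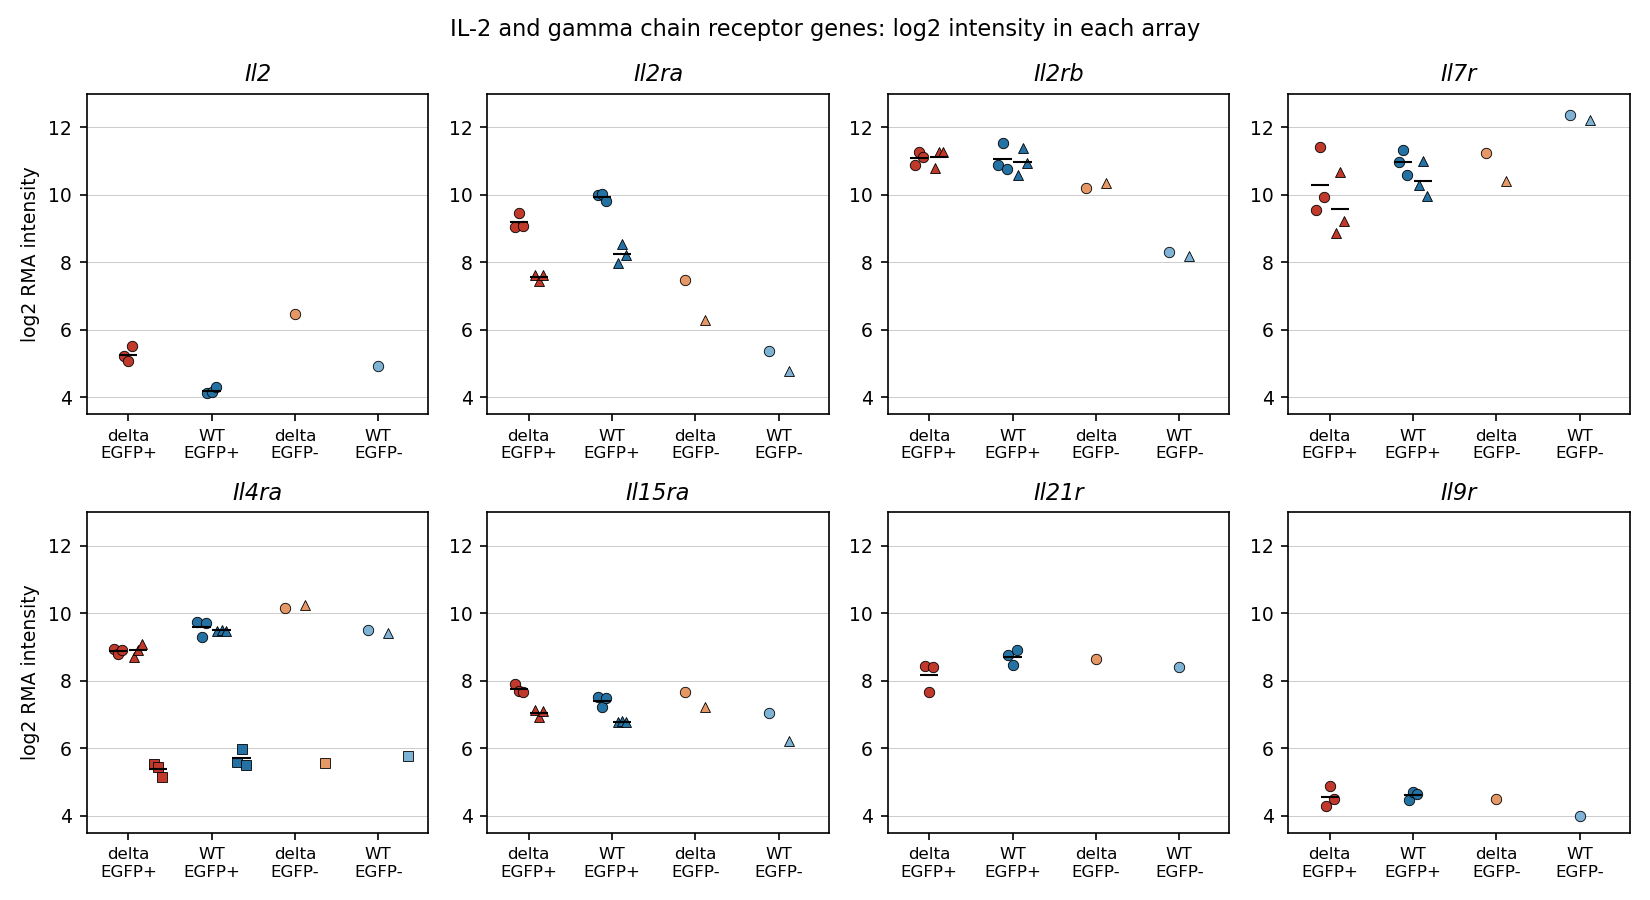
Log2 RMA intensity (y axis) of each probe set of the 8 measured genes in the 8 arrays, by group (x axis); each point is 1 array, circles, triangles and squares mark different probe sets of a gene, and bars are means of 3 arrays. Il2ra is higher in EGFP+ than in EGFP- arrays for both alleles, Il7r is highest in the WT EGFP- array, and Il2 is highest in the delta EGFP- array.

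Il2, the ligand, had levels of 5.22, 5.07 and 5.51 in the delta EGFP+ arrays, against 4.12, 4.16 and 4.31 in the WT EGFP+ arrays. It stood at 6.48 in the delta EGFP- array and at 4.94 in the WT EGFP- array. All 3 delta EGFP+ arrays lay above all 3 WT EGFP+ arrays, with means of 5.27 ± 0.22 and 4.2 ± 0.1 (SD, n = 3 each), a difference of 1.07 (SE 0.14, 95% interval 0.75 to 1.39, limma adjusted p = 0.0026). The call held under all 14 alternatives that could be fitted for it. These were low readings: the WT EGFP+ arrays ranked between the 12.2 and 16.1 percentile of all probe sets and the delta EGFP+ arrays between the 36.5 and 45.4 percentile, so no fold is given and there is no detection call. The delta EGFP- array, at the 60.7 percentile, held the highest level. Within each allele the EGFP+ arrays lay below the EGFP- array, by -1.21 for delta (SE 0.2, adjusted p = 0.11) and by -0.74 for WT (SE 0.2, 0.21), and neither passed.

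Il2ra, the alpha chain that gives the IL-2 receptor its high affinity, was read by probe sets 1420692_at and 1420691_at. The first stood at 9.06, 9.45 and 9.07 in the delta EGFP+ arrays, against 10, 10.02 and 9.82 in the WT EGFP+ arrays. It stood at 7.47 in the delta EGFP- array and at 5.38 in the WT EGFP- array. The groups ran from WT EGFP+ down through delta EGFP+ and delta EGFP- to WT EGFP-, with no overlap between neighbours. Probe set 1420691_at had the same order, with 7.61, 7.45 and 7.63 in the delta EGFP+ arrays, 7.98, 8.54 and 8.21 in the WT EGFP+ arrays, 6.3 in the delta EGFP- array and 4.79 in the WT EGFP- array. Between the EGFP+ groups 1420692_at fell 1.69-fold (difference -0.75, SE 0.14, limma adjusted p = 0.012) and 1420691_at fell 1.6-fold (-0.68, SE 0.16, 0.028).

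Single arrays decided these Il2ra calls. For 1420692_at the adjusted p was 0.051 without WT EGFP+ replicate 1 and 0.053 without delta EGFP+ replicate 1 (0.0092 to 0.12 over all alternatives). For 1420691_at it was 0.082, 0.1 and 0.059 without delta EGFP+ replicates 1, 2 and 3 and 0.077 without WT EGFP+ replicate 3 (0.022 to 0.1). The difference stayed negative throughout, between -0.93 and -0.53 over both probe sets. The average over 14 handling genes (immediate-early and heat shock) was 9.81, 9.82 and 8.47 in the delta EGFP+ arrays against 10.95, 9.87 and 10.89 in the WT EGFP+ arrays. Every delta EGFP+ value lay below every WT EGFP+ value, so this average is confounded with the allele. Here and below, a call lost with it cannot tell handling from allele. With that average as a covariate the Il2ra difference at 1420692_at was -0.7 (adjusted p = 0.12), and that at 1420691_at was -0.93 (0.042), still called.

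The next comparison sets EGFP+ against EGFP- cells of the same allele. Il2ra was the member with the largest rise for both alleles. For delta, 1420692_at averaged 9.19 ± 0.22 in EGFP+ arrays (SD, n = 3) and 7.47 in the EGFP- array, 3.29-fold (1.72, SE 0.2, adjusted p = 0.046), while 1420691_at differed by 1.26 (SE 0.22, 0.13). The delta call was lost without WT EGFP+ replicate 1 (0.12) or 3 (0.12) and without delta EGFP+ replicate 1 (0.14), 2 (0.11) or 3 (0.11), within 0.024 to 0.34 over all alternatives. For WT, 1420692_at averaged 9.94 ± 0.11 in EGFP+ arrays (SD, n = 3) and 5.38 in the single EGFP- array, a difference of 4.56 (SE 0.2, limma adjusted p = 0.00048), and 1420691_at rose by 3.45 (SE 0.22, 0.0015). Both WT calls held under all 15 alternatives. The WT EGFP- readings, 5.38 and 4.79, were low, at the 43.1 and 29.4 percentile of all probe sets, so no fold is given for WT.

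The difference of those differences was tested as an interaction. At 1420692_at the EGFP+ against EGFP- difference was smaller for delta than for WT, with an interaction of -2.85 (SE 0.28, 95% interval -3.5 to -2.19, limma adjusted p = 0.045), and of -2.19 at 1420691_at (SE 0.31, 0.097; 0.037 without WT EGFP+ replicate 2). Of the 14 member probe sets this was the 1 called in the interaction, lower, against 0.04% of all probe sets called (0.0244% lower). The call was lost when any single EGFP+ array except WT EGFP+ replicate 2 was left out: 0.14 and 0.088 without WT EGFP+ replicates 1 and 3, and 0.14, 0.09 and 0.11 without delta EGFP+ replicates 1, 2 and 3 (0.013 to 0.22 over all alternatives). The 2 EGFP- arrays differed by 2.09 at this probe set, 7.47 in delta against 5.38 in WT, and the EGFP+ groups by -0.75. The WT EGFP- reading lay below the median of all probe sets. With 16 added to intensities the interaction was -2.49 (limma adjusted p = 0.068) and not called. Regulatory T cell markers differed between the same groups, in both directions. Ikzf2 had an interaction of -3.55 (limma adjusted p = 0.0044), with 11.48 in delta EGFP- against 7.98 in WT EGFP-. Foxp3, whose reading goes against the WT EGFP+ label, had an interaction of 4.9 (0.0044). Those of Ctla4 (-3.79, 0.67), Nrp1 (-2.74, 0.3) and Tnfrsf18 (-0.86, 0.75) did not pass. The part of these markers in the Il2ra interaction was not tested. This interaction and the comparisons above share arrays.

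Il2rb, the beta chain that carries signals of IL-2 and IL-15, did not differ detectably between the EGFP+ groups. Probe set 1448759_at stood at 10.88, 11.26 and 11.11 in the delta EGFP+ arrays, against 10.89, 11.53 and 10.75 in the WT EGFP+ arrays. The arrays overlapped fully, and the difference was 0.03 (SE 0.21, 95% interval -0.47 to 0.52, limma adjusted p = 0.96). At 1417546_at it was 0.14 (SE 0.22, 0.79), and the sign turned under some alternatives at both probe sets. The level was 10.19 at 1448759_at in the delta EGFP- array and 8.32 in the WT EGFP- array. For delta the differences from EGFP- were 0.89 (SE 0.3, 0.41) and 0.77 (SE 0.31, 0.49) at the same probe sets, and neither passed. For WT the EGFP+ mean was 6.67-fold above EGFP- at 1448759_at (difference 2.74, SE 0.3, adjusted p = 0.0077) and 6.83-fold at 1417546_at (2.77, SE 0.31, 0.0084). In a fit of the 4 WT arrays alone these adjusted p were 0.073 and 0.07. The interaction gave -1.85 (0.4) and -2 (0.36).

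Il7r, the IL-7 receptor alpha chain, is a gene of naive and memory T cells. Probe set 1448575_at stood at 9.55, 11.43 and 9.92 in the delta EGFP+ arrays, against 10.97, 11.34 and 10.58 in the WT EGFP+ arrays. It stood at 11.25 in the delta EGFP- array and at 12.37 in the WT EGFP- array. Delta EGFP+ replicate 2 lay above all WT EGFP+ arrays while the other 2 delta EGFP+ arrays lay below them, so the groups overlapped.

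The Il7r difference between the EGFP+ groups was -0.66 (SE 0.45, 95% interval -1.72 to 0.39, limma adjusted p = 0.45) at 1448575_at and -0.82 (SE 0.46, 0.34) at 1448576_at. Without delta EGFP+ replicate 2 it was -1.23 (adjusted p = 0.031) and -1.37 (0.044). At 1448576_at that replicate stood at 10.68, within the WT EGFP+ range of 9.96 to 11, and the other 2 delta EGFP+ arrays stood at 8.87 and 9.23. Against EGFP- arrays Il7r differed by -0.95 for delta (SE 0.64, 0.71) and by -1.41 for WT (SE 0.64, 0.57) at 1448575_at, and neither passed. At that probe set 2 of 3 delta EGFP+ arrays lay below the delta EGFP- array, and 3 of 3 WT EGFP+ arrays lay below the WT EGFP- array.

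Il4ra, the chain that binds IL-4 and is also part of a receptor for IL-13, had its lowest levels in delta EGFP+ cells. Probe set 1421034_a_at stood at 8.94, 8.8 and 8.91 in the delta EGFP+ arrays, against 9.73, 9.31 and 9.7 in the WT EGFP+ arrays. It stood at 10.17 in the delta EGFP- array and at 9.5 in the WT EGFP- array. Every delta EGFP+ array lay below all other arrays, and the WT EGFP- array lay within the WT EGFP+ range.

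Between the EGFP+ groups 1421034_a_at fell 1.62-fold (difference -0.7, SE 0.14, limma adjusted p = 0.016) and 1423996_a_at fell 1.5-fold (-0.59, SE 0.12, 0.019). The third probe set, 1447858_x_at, near the median of all probe sets, differed by -0.33 (SE 0.16, 0.27). Both calls were lost without WT EGFP+ replicate 1 (0.065 and 0.063) or 3 (0.063 and 0.063) and without delta EGFP+ replicate 1 (0.053 and 0.065) or 2 (0.064 and 0.065). With the handling gene average as a covariate 1421034_a_at differed by -0.54 (0.19) and 1423996_a_at by -0.76 (0.048), the second still called. Over all alternatives the adjusted p ran from 0.0036 to 0.19 and from 0.014 to 0.065. Delta EGFP+ cells also stood below delta EGFP- cells, by -1.29 (SE 0.2, adjusted p = 0.099) and -1.35 (SE 0.17, 0.06), differences that did not pass. Without WT EGFP+ replicate 2, which enters through the shared spread, 1421034_a_at passed (0.035). WT EGFP+ cells differed from WT EGFP- cells by 0.08 (SE 0.2, 0.96) at 1421034_a_at. The interaction gave -1.37 (SE 0.28, 0.31) and -1.42 (SE 0.25, 0.21).

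Il15ra, which presents IL-15 to cells bearing the beta and gamma chains, had levels of 7.92, 7.69 and 7.67 at 1448681_at in the delta EGFP+ arrays, against 7.51, 7.22 and 7.48 in the WT EGFP+ arrays. It stood at 7.66 in the delta EGFP- array and at 7.05 in the WT EGFP- array. The EGFP+ groups did not overlap, but the difference of 0.36 (SE 0.13, limma adjusted p = 0.13) did not pass, nor did that of 0.27 (SE 0.11, 0.17) at 1422397_a_at.

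Il21r, the private chain for IL-21, stood at 8.45, 7.67 and 8.4 in the delta EGFP+ arrays, against 8.77, 8.47 and 8.9 in the WT EGFP+ arrays, a difference of -0.54 (SE 0.22, limma adjusted p = 0.18). The EGFP- arrays stood at 8.65 for delta and 8.41 for WT, so the 4 group means spanned only 0.54. Il9r, the IL-9 receptor, stood between 4.29 and 4.89 in the delta EGFP+ arrays and between 4.48 and 4.72 in the WT EGFP+ arrays, at 4.49 in the delta EGFP- array and at 3.99 in the WT EGFP- array. Those readings lay between the 9.1 and 32 percentile of all probe sets and did not separate the EGFP+ groups (difference -0.06, SE 0.17, 0.88).

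**Figure D2:**
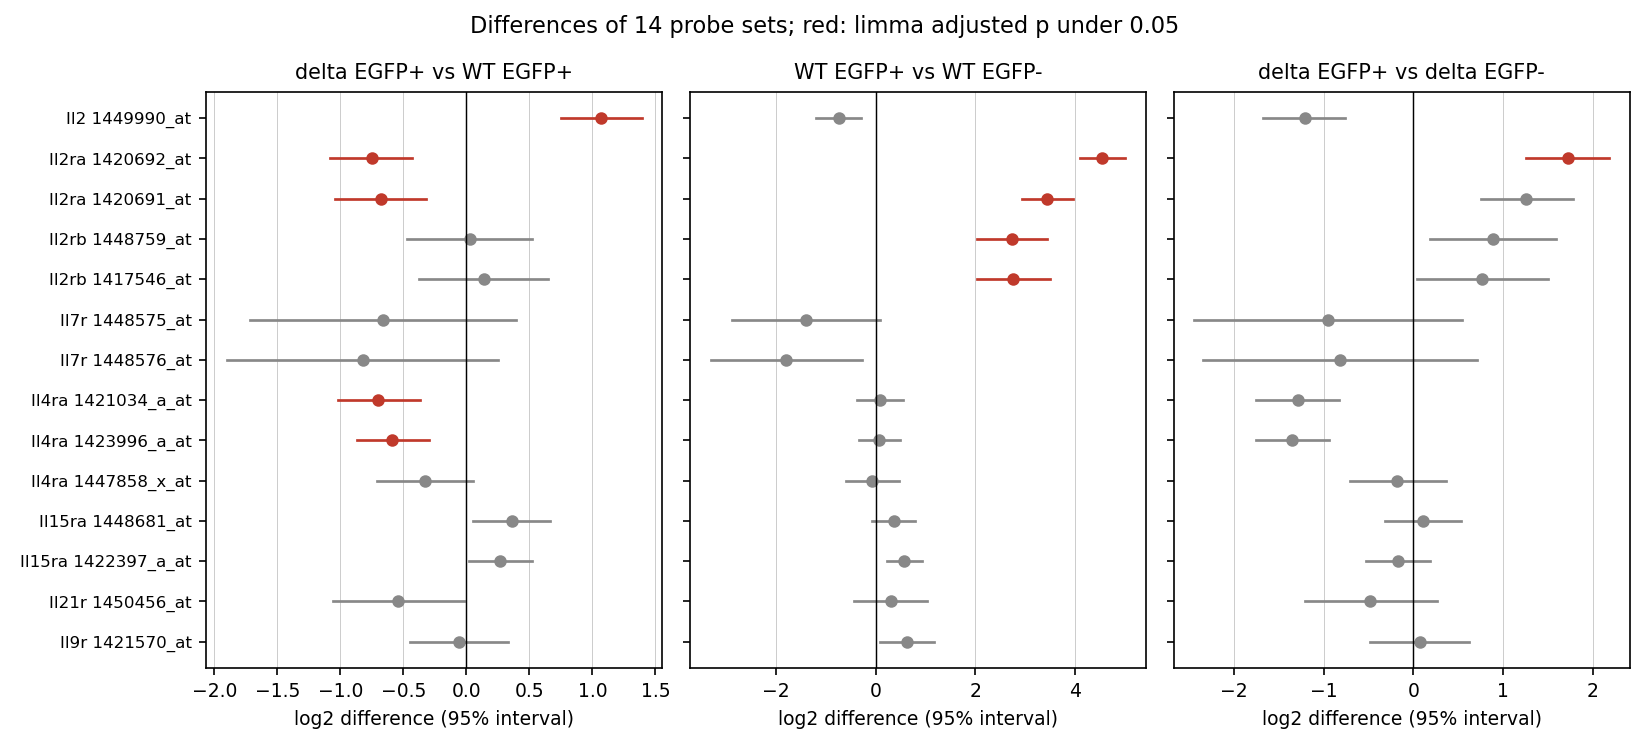
Log2 difference with its 95% interval from limma (x axis) for the 14 probe sets (y axis) in delta EGFP+ against WT EGFP+, WT EGFP+ against WT EGFP- and delta EGFP+ against delta EGFP-; red marks an adjusted p under 0.05, and the x axes differ in range. The red points are 5 in the first panel, 4 in the second (both probe sets of Il2ra and Il2rb) and 1 in the third (Il2ra at 1.72).

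Counted over the members, the comparison of delta EGFP+ with delta EGFP- called 1 of 14 probe sets, higher, against 0.0755% of all probe sets (0.0178% higher and 0.0577% lower). That of WT EGFP+ with WT EGFP- called 4 of 14, all higher, against 1.1% of all probe sets (0.706% higher and 0.395% lower). The median difference over the members was -0.18 for delta and 0.33 for WT, against 0 and -0.01 over all probe sets. Arrays of the delta EGFP+ and WT EGFP+ groups did not overlap for 8 of the 14, a state that held for 29% of all probe sets.

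The 2 EGFP- arrays have no replicate and can be compared by value alone. The delta EGFP- array stood at least 2-fold higher than the WT EGFP- array in 6 of 14 member probe sets, against 2.82% of all probe sets, and at least 2-fold lower in 2 of 14, against 1.72% (4.53% in either direction). The higher ones were Il2 (6.48 against 4.94), both of Il2ra, both of Il2rb (3.67-fold at 1448759_at and 4.39-fold at 1417546_at) and 1422397_a_at of Il15ra (7.23 against 6.21, 2.02-fold). The lower ones were both of Il7r (11.25 against 12.37 at 1448575_at and 10.41 against 12.22 at 1448576_at). In bulk RNA, fewer cells of a type and less RNA per cell cannot be told apart.

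Markers of regulatory T cells and of other cell types were read in the same arrays. The 5 regulatory T cell genes, Foxp3 included, averaged 10.82 to 11.39 in delta EGFP+ arrays, 10.07 to 10.33 in WT EGFP+ arrays, 9.16 in the delta EGFP- array and 7.08 in the WT EGFP- array. The log2 of their summed level was 13.42 to 13.83, 13.54 to 13.84, 12.33 and 10.24 in the same order of groups, so the delta EGFP- array, higher in Il2ra and Il2rb, was also higher in these markers than the WT EGFP- array. Between the EGFP+ groups Foxp3 differed by 6.52, delta minus WT (limma adjusted p = 3e-06). Ikzf2 differed by -0.05 (0.83), Tnfrsf18 by -0.12 (0.73), Ctla4 by -0.61 (0.63) and Nrp1 by -1.39 (0.015, called lower). The higher average in delta EGFP+ than in WT EGFP+ arrays thus rests on Foxp3, whose reading goes against the WT EGFP+ label. The log2 of the summed level of the CD8 T cell genes Cd8a and Cd8b1 was 7.29 to 9.29 in delta EGFP+ arrays, 7.11 to 7.77 in WT EGFP+ arrays, 9.13 in the delta EGFP- array and 8.14 in the WT EGFP- array. That of 2 measured NK cell genes of 3 was 6.12 to 6.76, 6.71 to 7.49, 8.01 and 7.07 in the same order of groups. That of 5 myeloid genes was 7.76 to 8.54, 8.15 to 10.23, 7.86 and 7.95, and that of 4 B cell genes of 5 was 7.56 to 7.99, 7.69 to 8.34, 7.73 and 7.8. Erythroid and platelet genes (4 of 5) summed to 7.35 to 7.62 in delta EGFP+ arrays, 7.28 to 7.59 in WT EGFP+ arrays, 7.39 in delta EGFP- and 7.66 in WT EGFP-. The 4 stromal genes summed to 9.02 to 9.26, 9.78 to 10.07, 9.79 and 10.16 in the same order of groups. That sum mainly reads Pecam1, the highest of them, which differed by -1.07 between the EGFP+ groups (limma adjusted p = 0.0055). Cdh5 differed by -0.26 (0.21), while Col1a1 (0.34, adjusted p = 0.36) and Col1a2 (0.45, adjusted p = 0.086) went the other way. Regulatory T cells carry Il2ra and Il2rb and the other types can carry Il2rb, Il7r or Il4ra, and their part in the results was not tested. Array data have no true 0, so none of these markers can be called absent.

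For members above the median level whose group means spanned at least 1, the 3 genes of most similar pattern over the 8 arrays were taken by the root mean square difference of their centred levels. For Il2ra these were Socs2, a feedback inhibitor of cytokine signals (0.5), Nrp1, a surface receptor of regulatory T cells (0.51), and Rgs1, a regulator of G protein signals (0.55). For Il2rb they were Mdfic (0.21), S100a6 (0.25) and Kcnk6 (0.26). For Il7r they were Acss1 (0.44), Txnip, a regulator of glucose uptake (0.45), and Tubgcp3 (0.45), and for Il4ra Zfp398 (0.18), the histone demethylase Kdm5b (0.19) and Ighv14-2 (0.2). The level filter applied to the members alone, and Ighv14-2 read only 4.04 to 4.94, below the median of all probe sets in every array. The root mean square values describe 8 arrays in 4 groups and carry no test.

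Genes around the receptors were followed in lists of 61 symbols, 59 of them measured, by the probe set of highest mean. In delta EGFP+ against WT EGFP+ limma called 8 higher and 12 lower, against 16.5% of all genes (10.4% higher and 6.02% lower), and the median was -0.09 against 0.02 over all genes. Among the ligands, 3 of 7 rose and 0 fell. Il4 averaged 9.75 ± 0.1 in delta EGFP+ arrays and 4.74 ± 0.09 in WT EGFP+ arrays (SD, n = 3 each; difference 5.01, SE 0.11, adjusted p = 3e-06). Il21 differed by 3.67 (SE 0.12, 1.4e-05), although its other probe set differed by 0.07, and Il13 by 1.62 (SE 0.23, 0.0038). In WT EGFP+ arrays all 3 were low readings, with means below the median of all probe sets (4.43 for Il21 and 4.84 for Il13), so no fold is given. Of 3 partner chains limma called 0, with 1 at an unadjusted p under 0.05: Crlf2, the partner of Il7r in the TSLP receptor (0.47, SE 0.13, adjusted p = 0.06).

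Of 6 measured kinases and STATs 3 fell and 0 rose: Stat5b, a main effector of IL-2, by -0.83 (SE 0.14, adjusted p = 0.0079), Jak1 by -0.66 (SE 0.13, 0.016) and Stat6, the effector of IL-4, by -0.58 (SE 0.12, 0.02). With the handling gene average as a covariate these 3 calls were lost, with adjusted p of 0.064 for Stat5b (-0.87), 0.15 for Jak1 (-0.62) and 0.11 for Stat6 (-0.64). Of 10 adaptors and downstream kinases 4 fell and 2 rose, with Sos1 at -1.26 (0.018), the PI3 kinase subunit Pik3r1 at -1.21 (0.0021), the phosphatase Ptpn11 at 1.03 (0.0014) and Akt1 at 0.77 (0.01). The other 2 that fell were the PI3 kinase subunits Pik3ca (-0.51, 0.033) and Pik3cd (-0.49, 0.038), and these calls were lost under 7 and 8 of 15 alternatives. The 6 calls became 3, 2 higher and 1 lower, without WT EGFP+ replicate 1, without delta EGFP+ replicate 1 or with the run of title numbers as a block, and 3, 1 higher and 2 lower, with the handling covariate, where Akt1 was lost (0.091). Other probe sets differed by -0.42 to -0.01 for Sos1, by -1.8 to -1.09 for Pik3r1, by 0.01 to 0.76 for Ptpn11, by -0.23 to 0.91 for Akt1, by -0.89 to -0.24 for Pik3ca and by -0.6 to 0.1 for Pik3cd. Of 6 feedback genes 1 fell, Socs3 (-0.77, SE 0.18, 0.026), with an adjusted p of 0.1 under the handling covariate. Of 9 known targets of IL-2 or STAT5 1 rose, the kinase Pim2 (1, SE 0.1, 0.00089). The other 8 did not pass. Pim1 (-1.29, limma adjusted p = 0.073), Lta (-0.81, 0.075), Mcl1 (-0.57, 0.067) and Ccnd2 (-0.07, 0.88) stood lower. Osm (0.42, 0.13), Ccnd3 (0.41, 0.092), Myc (0.33, 0.32) and Bcl2 (0.07, 0.89) stood higher. With the handling covariate 1 of the 9 was called higher and 1 lower.

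Of 7 factors known to act on Il7r, 4 fell and 1 rose. Foxo1, a known activator of Il7r, averaged 10.25 ± 0.2 in delta EGFP+ arrays and 12.06 ± 0.1 in WT EGFP+ arrays (SD, n = 3 each; difference -1.81, SE 0.13, adjusted p = 0.00025), with its other probe sets between -1.72 and 0.02. Klf2 (-1.38, 0.0008), Foxp1 (-1.15, 0.0074; 0.096 with the handling covariate) and the glucocorticoid receptor Nr3c1 (-0.87, 0.0018; other probe sets -1.05 to -0.05) also fell, and Gfi1, a repressor of Il7r, rose by 0.46 (0.038), a call lost without WT EGFP+ replicate 1 (0.12) or 3 (0.12) and without delta EGFP+ replicate 1 (0.093), 2 (0.12) or 3 (0.056), and with the handling covariate (0.18). Of 11 measured factors known to act on Il2, Prdm1, a repressor of Il2, rose by 1.5 (SE 0.26, 0.0087), 0 fell, and the other 10 did not pass. With the handling covariate the Prdm1 call was lost (1.07, 0.12). The probe sets of Nfatc1, an activator of Il2, disagreed: that of highest mean differed by -0.3 (0.14) and the other 4 by 1.04 to 1.43.

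**Figure D3:**
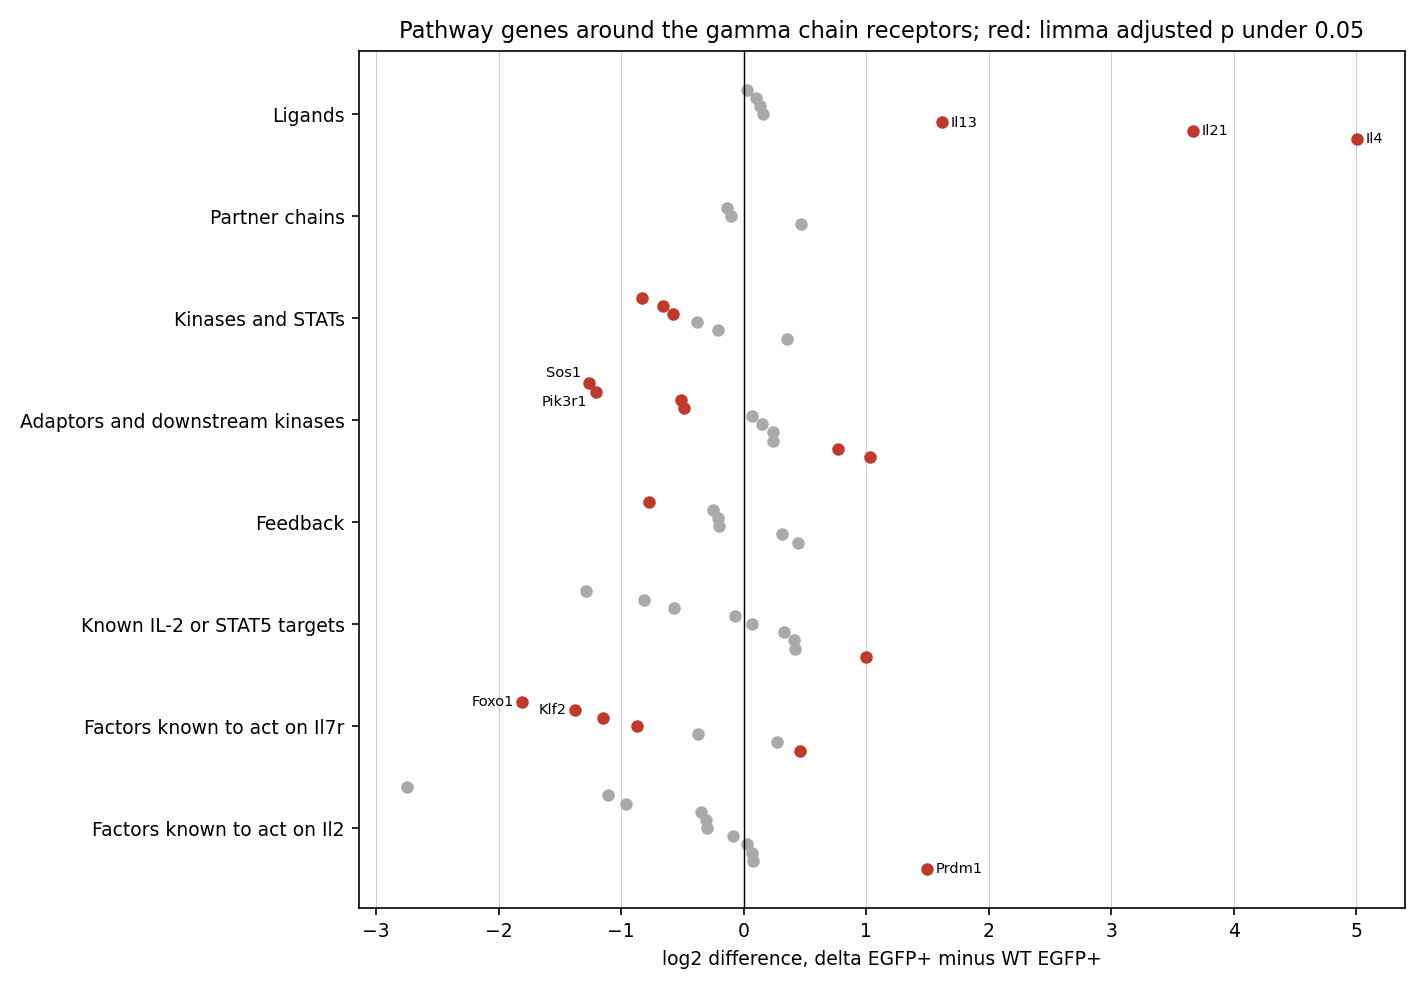
Log2 difference of delta EGFP+ minus WT EGFP+ (x axis) for 59 measured genes in 8 lists (y axis); each point is 1 gene, spread vertically within its list, and red marks a limma adjusted p under 0.05. Il4, Il21 and Il13 lie farthest to the right, and Foxo1 (-1.81) and Klf2 (-1.38) lie to the left among the factors known to act on Il7r; the grey point farthest to the left is Jun (-2.75, adjusted p = 0.19), which is also among the handling genes.

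Single arrays moved some of these calls. Without WT EGFP+ replicate 1 the count fell to 13, and the calls of Jak1 (0.059), Stat6 (0.055), Sos1 (0.07) and Socs3 (0.076) were lost. Without delta EGFP+ replicate 1 those of Jak1 (0.061), Stat6 (0.08) and Sos1 (0.077) were lost, without delta EGFP+ replicate 2 that of Sos1 (0.068), without delta EGFP+ replicate 3 those of Jak1 (0.053) and Stat6 (0.063), and without WT EGFP+ replicate 3 those of Jak1 (0.052) and Socs3 (0.086). In WT EGFP+ against WT EGFP- limma called 3 of the 59 higher and 3 lower, against 1.5% of all genes (1.02% higher and 0.478% lower). Socs2 rose by 3.07 (adjusted p = 0.0026), Cish, a STAT5 target that restrains cytokine signals, by 1.91 (0.0045) and Gfi1 by 1.33 (0.011), while Il4 (-1.34, 0.0095), Il21 (-1.28, 0.015) and Pim2 (-0.95, 0.027) fell. Il21 read below the median of all probe sets in both WT groups (mean 4.43 in EGFP+ and 5.7 in the EGFP- array). The Pim2 call was lost without WT EGFP+ replicate 1 (0.084) or 3 (0.086) and without delta EGFP+ replicate 1 (0.068), 2 (0.062) or 3 (0.052). That count was 10 without WT EGFP+ replicate 2, 7 higher and 3 lower. In delta EGFP+ against delta EGFP- and in the interaction limma called 0 of 59, against 0.0879% and 0.066% of all genes called. At an unadjusted p under 0.05 there were 15 and 14 of the 59. The share of all genes at that unadjusted cutoff was not computed, so these counts cannot be read as an excess.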

How the data were processed

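The authors deposited 1 linear intensity per probe set and array, computed with RMA according to the submitters' processing notes, which give no version used here. Of 45101 probe sets, 64 controls were dropped. The platform annotation named a single gene for 34945 of the rest, more than 1 gene for 932, and no gene here for 9160; 34741 matched a current gene record. The probe set of highest mean stood for a gene. Intensities were log2 transformed with no pseudocount or filter. Limma 3.58.1 (R 4.3.3) estimated group means from the 8 arrays together (4 residual and 3.72 prior degrees of freedom), with two-sided tests, Benjamini-Hochberg adjustment over 45037 probe sets and a threshold of 0.05, and was tested on simulated data. Folds are given only where both group means exceed the median of all probe sets (5.76). An exact permutation test of 3 against 3 cannot go below 0.1. The members and lists were chosen with earlier results of these data known. All members were named and, per list, up to 4 called genes by size of the difference, or the smallest p where none passed. Gfi1, Pik3ca, Pik3cd, Nfatc1, Ikzf2 and the genes called between WT EGFP+ and WT EGFP- were added after their values were seen. So were the uncalled targets of IL-2 or STAT5 and the interactions of the other regulatory T cell markers. Alternatives covered the pseudocount, a filter on low values, scaling, the variance prior, covariates and arrays left out.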

Additional observations from a re-analysis of the deposited data

Results flagged for a closer look

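The Il2ra probe set 1420692_at was singled out because its EGFP+ against EGFP- difference differed between the alleles in a test of that difference. The difference was 1.72 for delta and 4.56 for WT, and the interaction was -2.85 (SE 0.28, limma adjusted p = 0.045), close to the threshold and resting on 1 EGFP- array for each allele. The second probe set of Il2ra gave -2.19 (0.097).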

How the results depend on the processing

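With a handling gene average as a covariate, 3 member probe sets and 12 pathway genes were called between delta EGFP+ and WT EGFP+ (main 5 and 20). With single arrays left out those counts ran from 1 to 5 and from 13 to 24. For WT EGFP+ against WT EGFP-, fitting the 4 WT arrays alone left 2 member and 2 pathway calls (main 4 and 6). The pathway count was 1 with the title number run as a block, 10 with WT EGFP+ replicate 2 and delta EGFP+ replicate 3 both left out, and 5 to 10 with single arrays left out. For delta EGFP+ against delta EGFP- (main 1 member, 0 pathway), members called were 0 with 16 added to intensities, with probe sets above the median alone, with the delta arrays alone, with the run block and with the handling covariate. They were 2 with a trended robust prior (1 pathway call), 5 with both arrays left out (2 pathway calls) and 0 to 2 with single arrays left out (0 to 1 pathway calls). For the interaction (main 1 and 0) they were 0 with the added 16, the filter, the block and the covariate, 2 with both arrays left out (1 pathway call) and 0 to 2 with single arrays left out (0 to 1 pathway calls). The share of all probe sets or genes called was computed for the main fit alone, not for the alternatives here or above. Whether these shifts in count are particular to the members and lists therefore cannot be told. Their cause was not tested.

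The signs that turned belonged to uncalled differences. Between the EGFP+ groups, Il2rb 1448759_at was -0.012 after quantile normalization, -0.29 with the handling covariate and -0.13 to 0.27 with single arrays left out. Il2rb 1417546_at was -0.28 with that covariate and -0.052 to 0.346 with single arrays left out. Il9r was 0.015 with both arrays left out and -0.229 to 0.072 with single arrays left out. For WT EGFP+ against WT EGFP-, Il4ra 1423996_a_at was -0.029 with the block and 1447858_x_at -0.208 to 0.023 with single arrays left out. For delta EGFP+ against delta EGFP-, Il9r was -0.14 with the block and -0.098 to 0.203 with single arrays left out. In the interaction, Il4ra 1447858_x_at was 0.14 with both arrays left out and -0.201 to 0.030 with single arrays left out, where Il7r 1448575_at was -0.106 to 0.837.

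The title numbers fall in 3 runs whose meaning is not stated. Deviations of arrays in the same run correlated at 0.12, 0.05 and -0.1, so they were not read as pairs; the block changed 1 member call between the EGFP+ groups, Il2ra 1420691_at (adjusted p = 0.066). The filter leaves no value for Il2, Il9r and Il4ra 1447858_x_at, the fit of the compared arrays alone was not run for the interaction, and the choice of probe set applies to the pathway genes alone. The labels give no replicate numbers.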
